A study of Mus musculus with 24 samples.

Results

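Transcript levels were compared between SIM-A9 cells given the voltage-sensitive dye Di-2-ANEPEQ and untreated SIM-A9 cells. SIM-A9 is a mouse microglial line that became immortal without an added oncogene, so every library comes from 1 line. The comparison takes 6 of the 24 libraries of the series, 3 labelled with the dye and 3 labelled as control, and all 13116 of 54838 genes in the table that passed a filter on low counts. The series asks how probes used in neuroscience affect microglia, with bacterial lipopolysaccharide (LPS) as the positive control for inflammation. Control cells were untreated, and dye cells had the dye added to their wells for 2 h at 37 °C. An added volume of 30 µL in 270 µL of medium is listed for both groups. It is therefore not clear whether control wells had liquid without dye added. Both had been moved to serum-free medium 2 h before the start, and poly-A RNA of adherent cells was sequenced. The labels give no dose and spell the dye in more than 1 way. They do not say whether the 3 libraries of a group came from separate cultures, so the p-values may measure only the spread between these samples.

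Di-2-ANEPEQ belongs to the styryl dyes, which insert into the plasma membrane and change their fluorescence with the voltage across it. Microglia are the resident macrophages of the brain. They sense injury through G-protein-coupled and pattern-recognition receptors, release cytokines and chemokines on activation, and can shift their metabolism towards glycolysis. RGS proteins shorten G-protein signals by speeding GTP hydrolysis. Ribosomal proteins and the small subunits of the respiratory chain are encoded by many short, highly transcribed nuclear genes.

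The changes after 2 h of dye were small. Of the 13116 genes, 404 (3.08%) were called at an adjusted p under 0.05 by edgeR's quasi-likelihood test with Benjamini-Hochberg adjustment. Of these, 90 (0.686% of the genes tested) were higher and 314 (2.39%) were lower in the dye libraries. The genes called lower included 22 cytosolic ribosomal proteins, 15 nuclear-encoded genes of oxidative phosphorylation, 12 mitochondrial ribosomal proteins, small noncoding-RNA host genes and the G-protein regulators Rgs1 and Rgs2. The genes called higher included 7 of glycolysis and the hypoxia (HIF-1) response, the lipase gene Pnpla2 and the Golgi gene Golga3. The cytokine genes Tnf, Il1b and Il6 were not called.

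The median log2 fold change was 0.17 among the genes called higher and −0.27 among those called lower, beside 0.00 over all genes tested. A log2 fold change of at least 0.5 in either direction was reached by 27 called genes, 25 of them lower. The 2 called genes beyond 1 were the unclassified locus Gm43511 (lower) and the processed pseudogene Gm15484 (higher), both under 1 CPM (counts scaled by library size and TMM factor) in every library. They were singled out after their values were seen. Among called genes with a mean of at least 5 CPM, the range was −0.65 to 0.46. The CPM of the 2 groups did not overlap in 3186 of the genes tested (24.3%), 1576 higher and 1610 lower, and in 398 of the 404 called genes. Protein-coding genes made up 385 of the called genes.

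**Figure D1:**
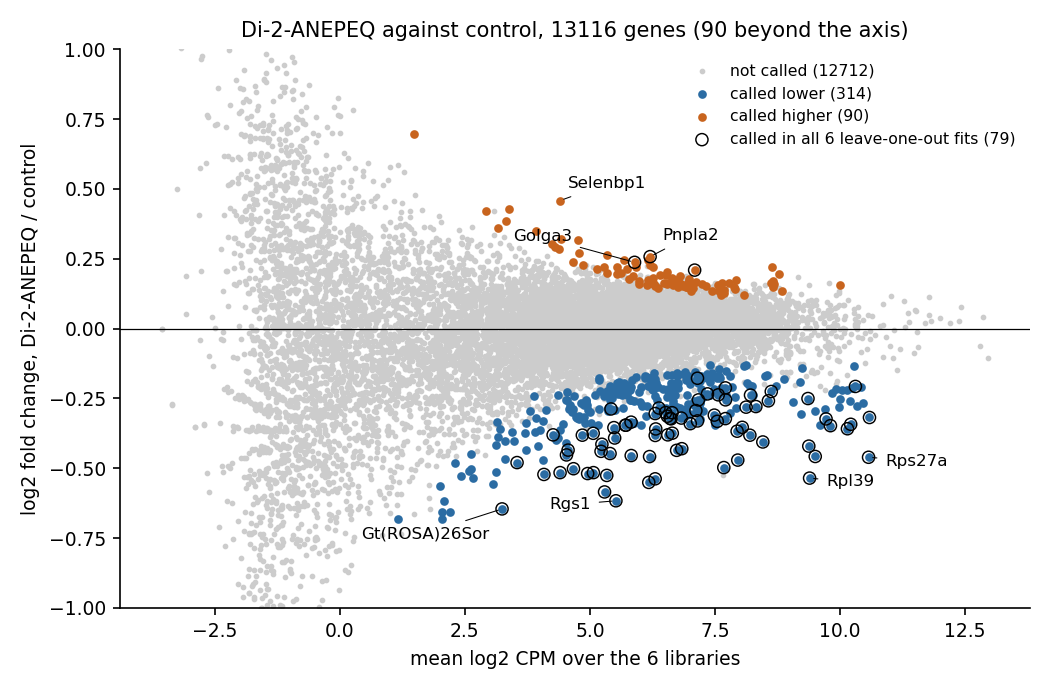
Log2 fold change of Di-2-ANEPEQ against control (vertical axis) by mean log2 CPM over the 6 libraries (horizontal axis), 1 point per gene tested. Blue and orange points are the 314 genes called lower and the 90 called higher, and circles mark the 79 genes still called when any 1 of the 6 libraries was left out; nearly all circles lie below 0.

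Total counts were 18176305 to 23155577 in the control libraries and 23163898 to 29259221 in the dye libraries. The groups did not overlap in depth, with an exact two-sided permutation p of 0.10, the smallest that 3 against 3 allows. Ribosomal-protein genes took 7.46% to 7.89% of the counts in control and 6.88% to 7.17% with the dye (exact permutation p = 0.10). Some other treated groups of the series had similar or lower shares, given below with the direct tests. Mitochondrially encoded genes took 1.54% to 1.72% and 1.42% to 1.55% (exact permutation p = 0.20). Index numbers were given out group by group, so the order of the libraries and the treatment cannot be told apart. Microglial and macrophage markers summed to 6044 to 6170 CPM in control and 6062 to 6162 CPM with the dye, and Siglech and Sall1, which mark microglia in the brain, had no count in any of the 6 libraries. Summed markers of astrocytes, neurons, fibroblasts, lymphocytes and neutrophils stayed under 1 CPM in each library. The oligodendrocyte list reached 36.3 to 37.2 CPM in control and 36.9 to 37.2 CPM with the dye, mostly Cnp, with Mog and Olig2 at 0. The endothelial list reached 299.9 to 319.9 and 313.7 to 319.7 CPM, with Flt1 its highest gene and Cldn5 at 0.

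How the calls changed without single libraries was measured by repeating the fit without each of the 6 libraries in turn. Each of these fits also had fewer libraries, so a lost call need not mean that it rested on the library left out. Mvd lost its call in all 6 fits, although its CPM were 58.7 to 60.1 in control and 66.1 to 67.9 with the dye. The count of called genes was 120 without control replicate 1 (14 higher, 106 lower), 165 without control replicate 3 (34 and 131), 129 without dye replicate 2 (14 and 115) and 190 without dye replicate 3 (28 and 162). It was 332 without dye replicate 1 and 418 without control replicate 2. Control replicate 2 was the control with the lowest ribosomal-protein share and the deepest of the 3. Of the 404 called genes, 79 (0.602% of the genes tested) kept their call in all 6 of these fits, and 31 kept it in none. Of the 79, 76 (0.579%) were lower and 3 (0.0229%) were higher. The 3 higher genes were Pnpla2, Golga3 and Zmiz2. The calls on the higher side were the less stable ones in this sense: 3 of 90 kept their call throughout, against 76 of 314 on the lower side. The higher calls were also smaller, with a median log2 fold change of 0.17 against −0.27. Whether their size accounts for the lost calls was not tested.

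**Figure D2:**
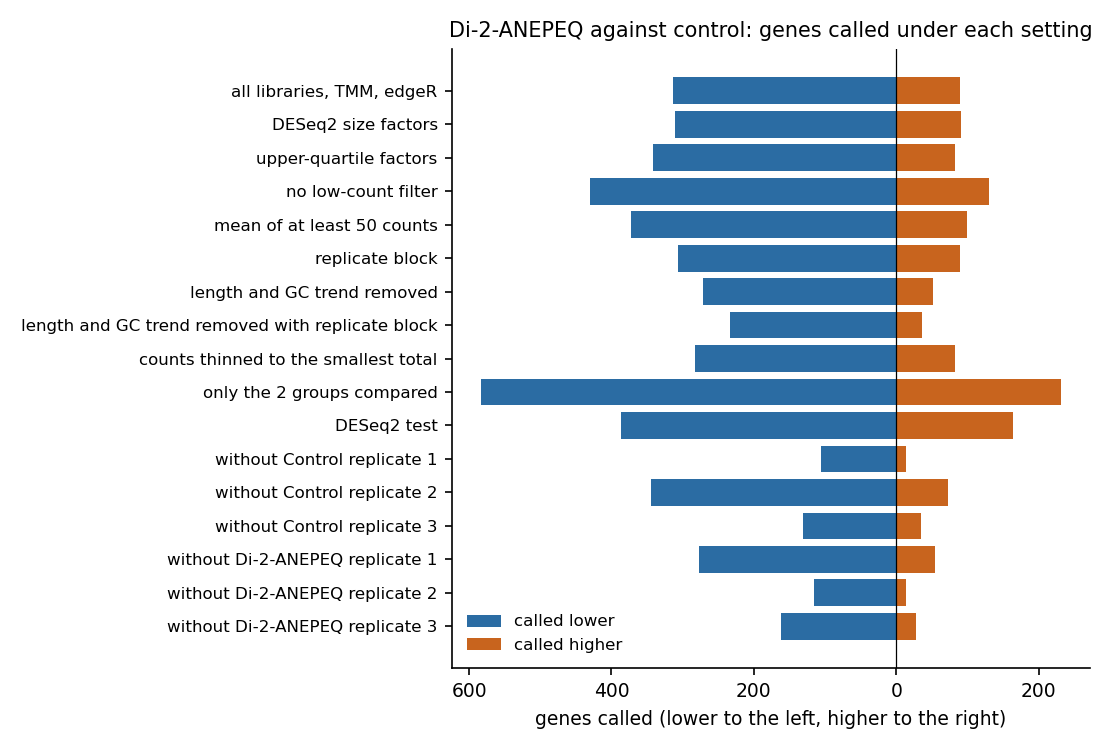
Number of genes called lower (blue, to the left) and higher (orange, to the right) in Di-2-ANEPEQ against control under each way of processing the counts. Without control replicate 1, control replicate 3, dye replicate 2 or dye replicate 3, the 404 calls came down to between 120 and 190, and lower calls outnumbered higher calls in each setting drawn.

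The fold changes also varied with the length of the gene. When the genes were split into quintiles by the summed length of their exons, the median log2 fold change was −0.06 in the shortest quintile and then −0.02, 0.00, 0.02 and 0.04 in the longest. Genes called lower numbered 97 in the shortest quintile and 18 in the longest, whereas genes called higher numbered 2 and 26. The median exon length was 2894.5 bases among genes called lower and 5879.5 among genes called higher, beside 4013 over all genes tested. Leaving the 43 ribosomal-protein genes out of the 2623 genes of the shortest quintile gave the same median of −0.06. So few genes could hardly move a median, so this does not show where the trend comes from. The slope was 0.0337 log2 units per doubling of length over 13112 genes (Pearson's r 0.174, Spearman's rho 0.235, across genes, which are not independent replicates). It was positive in 9 of 9 pairs of a dye library with a control library, from 0.0124 to 0.0458. These pairs reuse the same 6 libraries and are not independent. The slope stayed between 0.0258 and 0.04 when any 1 library was left out. Against the mean of all 24 libraries, the slope of each dye library (0.0121 to 0.0275) lay above that of each control library (−0.0183 to −0.000357), with an exact permutation p of 0.10, the smallest possible.

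Base composition moved the same way. Genes of the lowest quintile by GC content had a median of −0.04 and held 142 of the genes called lower and 1 called higher, while the highest quintile had a median of 0.03 with 22 lower and 50 higher. When each library's own trend with exon length and GC content was removed, 323 genes were called (2.46%), 52 higher (0.396%) and 271 lower (2.07%). Of the original 404 calls, 256 were among them (28 higher and 228 lower), and of the 79 genes called without any 1 library, 75 were. The dye group was not the one with the steepest slope. The mean slope against all libraries was 0.0201 ± 0.00771 (SD, n = 3) with Di-2-ANEPEQ, 0.0261 ± 0.00985 with AAV, an adeno-associated virus used for gene delivery, −0.01 ± 0.00905 in control and −0.033 ± 0.0197 with LPS.

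**Figure D3:**
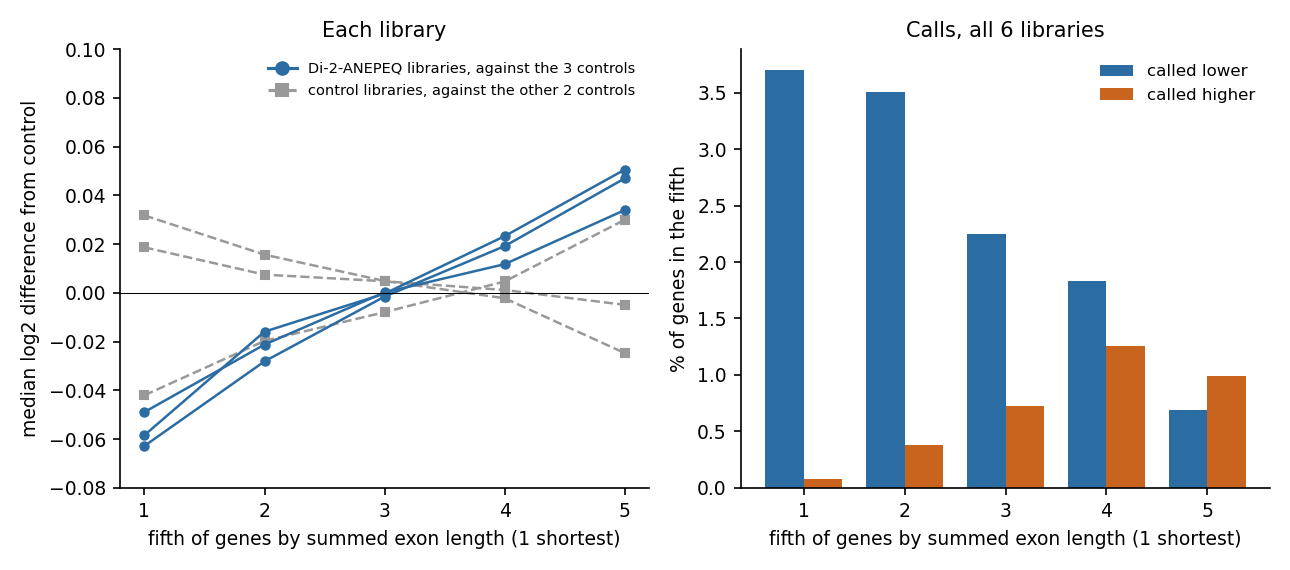
Left, median log2 difference from control by quintile of exon length, 1 line per library: the 3 Di-2-ANEPEQ libraries (blue) rise from between −0.0628 and −0.0489 in the shortest quintile to between 0.034 and 0.0506 in the longest, and control replicate 2 (the rising grey line, each control being set against the other 2) has the same tilt. Right, percent of the genes in each quintile called lower (blue) or higher (orange); the lower share falls from 3.7% to 0.686%.

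Cytosolic ribosomal proteins, which build the translating ribosome, gave the most genes called lower of any list examined. Of 78 measured, 22 (28.2%) were lower and none was higher, beside 2.39% lower over all genes. The median log2 fold change of the list was −0.09. The groups did not overlap with the dye lower in 45 of the 78, beside 12.3% over all genes tested. With the length and GC trend removed the median was −0.06 and 23 were lower, and between 11 (without dye replicate 2) and 26 were lower when 1 library was left out. Rpl39, a small protein of the large subunit (chrX:37082520-37085402 on GRCm38, minus strand), was counted at 855, 738 and 833 CPM in the 3 control libraries and at 570.3, 548 and 555 CPM in the 3 dye libraries. The dye libraries were close together and all under the lowest control. The log2 fold change of Rpl39 was −0.54 ± 0.07 (SE, adjusted p = 1.4e-05), a fall of 31%. Rps27a, which encodes ubiquitin fused to a small-subunit protein, had 1847, 1641 and 1865 CPM in control and 1357, 1231 and 1301 CPM with the dye (−0.46 ± 0.07, adjusted p = 5.3e-05). Rpl22, a large-subunit protein that binds RNA, had 879, 784 and 891 CPM in control and 637, 591 and 631 CPM with the dye (−0.46 ± 0.06, adjusted p = 1.4e-05). In each of these 3 genes control replicate 2 was the lowest control and still lay above every dye library. Rpl39, Rps27a, Rpl22, Rpl31, Rps27, Rps14, Rpl26, Rps7 and Rpl15 were among the members that kept their call without any 1 library. The related genes Rpl22l1 (48.1 ± 5.77 against 31.9 ± 1.14 CPM, SD, n = 3; −0.59 ± 0.09) and Rps27l (292 ± 19.6 against 211 ± 12; −0.47 ± 0.06) were also called lower.

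The ribosomal-protein list did not move as 1 block. Rpl14 stood at 780 ± 6.08 CPM in control and 803 ± 6.09 with the dye (0.04 ± 0.04, adjusted p = 0.634), and 8 of the 78 members had a fold change above 0. Most mammalian ribosomal-protein mRNAs begin with a run of pyrimidines at their 5′ end, the TOP motif, through which their translation is regulated. The sequence around the transcription start is therefore shown for 3 members that were called lower in all 6 fits without 1 library (Rps27, Rpl31, Rpl15) and 2 that were not called (Rpl14, Fau). Each line has the 40 bases before the RefSeq start and the first 20 from it on GRCm38.p6, 5′ to 3′ on the strand of the gene, with capitals on the longest run of C and T near the start. In Rpl31 the capitals end before the start, so by the start used here that run is not in the transcript. The windows are chr3:90213629-90213688 (minus strand) for Rps27, chr1:39367811-39367870 (plus) for Rpl31, chr14:18270967-18271026 (minus) for Rpl15, chr9:120571477-120571536 (plus) for Rpl14 and chr19:6057907-6057966 (plus) for Fau.
Rps27: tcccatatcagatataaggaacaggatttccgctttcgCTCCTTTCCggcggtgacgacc
Rpl31: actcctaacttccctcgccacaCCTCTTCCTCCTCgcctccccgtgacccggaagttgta
Rpl15: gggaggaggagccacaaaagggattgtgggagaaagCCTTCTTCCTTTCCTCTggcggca
Rpl14: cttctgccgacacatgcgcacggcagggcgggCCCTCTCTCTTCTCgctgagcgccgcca
Fau: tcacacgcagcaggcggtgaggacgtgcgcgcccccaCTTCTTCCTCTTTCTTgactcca

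The capitals span 9 bases in Rps27, 13 in Rpl31, 17 in Rpl15, 14 in Rpl14 and 16 in Fau, so the run was no shorter in the 2 genes that were not called than in Rps27. Over the list, a run of at least 8 near the start was present in 52.9% of the 17 called members with a RefSeq promoter and in 47.5% of the 40 not called. It was present in 19.8% of all tested genes with a promoter and in 20.7% of the 27017 promoters in the table. The letters CCGGAAG or their reverse complement CTTCCGG, the core bound by ETS factors, were found within the 300 bases around the start in 58.8% of the called members and 32.5% of those not called, beside 30.4% of the other genes called lower, 19.8% of all genes tested and 9.16% of all promoters. It was the motif with the widest gap of 9 searched on both strands in these windows. The cyclic AMP element TGACGTCA was in 5.88% of the called members against 12.5% of those not called, the YY1 motif in 0% against 5% and the HIF motif ACGTGC in 0% against 7.5%. The E-box CACGTG and the TATA box TATAAA were each in 11.8% against 7.5%, the AP-1 motif TGAGTCA in 5.88% against 2.5%, the NRF1 motif in 0% against 2.5% and the NF-kB motif in 0% of both. Rps27a was not matched in the promoter table. A match describes letters in a window and is not evidence of binding.

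**Figure D4:**
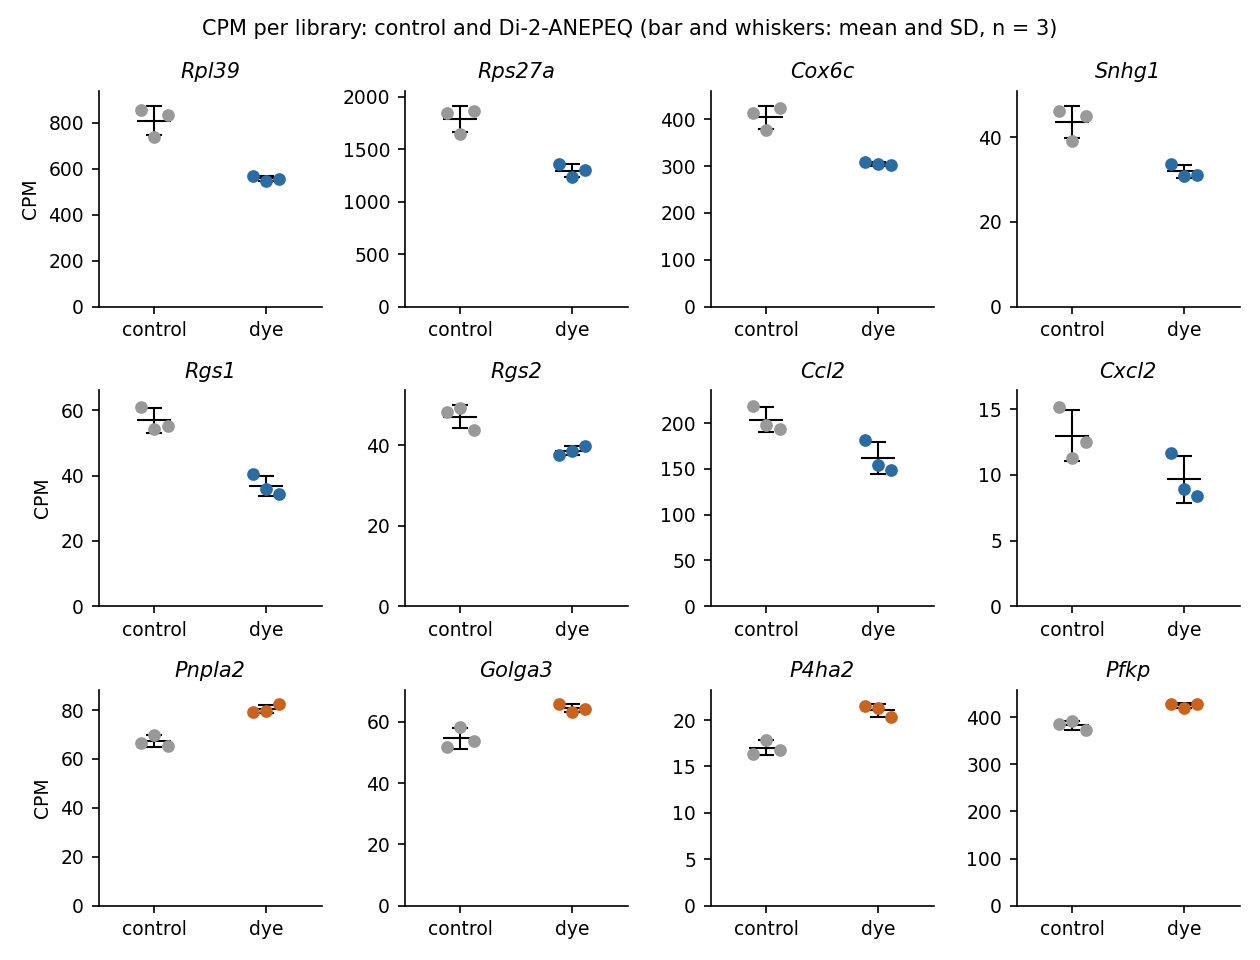
CPM in each library for 12 genes, control in grey and Di-2-ANEPEQ in blue (called lower) or orange (called higher); horizontal bars and whiskers are the mean and SD of 3 libraries, and each axis starts at 0. The groups are separate in every panel except Cxcl2, where the highest dye library (11.7 CPM) lies above the lowest control (11.3 CPM).

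Genes of the mitochondrion were mostly on the lower side too. Of 77 nuclear-encoded subunits of oxidative phosphorylation, 15 were lower and 1 was higher, beside 2.39% lower and 0.686% higher over all genes (median −0.07; 14 lower and 1 higher with the trend removed; between 6 and 16 lower when 1 library was left out, fewest without control replicate 1). Cox6c, a subunit of cytochrome oxidase, had 412, 377 and 424 CPM in control and 309, 304 and 301 CPM with the dye. Its dye libraries all lay under the lowest control, and its log2 fold change was −0.41 ± 0.06 (adjusted p = 0.000218). Cox7b, of the same complex, fell from 335 ± 23.3 to 257 ± 13.2 CPM (−0.38 ± 0.07, adjusted p = 0.000765). Ndufb4, an accessory subunit of complex I, fell from 63.4 ± 1.49 to 50.3 ± 1.18 CPM (−0.34 ± 0.06, adjusted p = 0.000784). Cox6c, Cox7b, Ndufb4, Cox7a2 and Ndufc2 kept their call in all 6 fits without 1 library. The member that rose was Sdha, the catalytic subunit of succinate dehydrogenase, which had 392, 392 and 382 CPM in control and 424, 443 and 437 CPM with the dye (0.16 ± 0.03, adjusted p = 0.00573), and it kept its call in 5 of the 6 fits.

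Mitochondrial ribosomal proteins, which translate the mitochondrial genome, included 12 of 77 called lower and none higher, beside 2.39% lower over all genes (median −0.06). The count was 10 with the trend removed and between 3 and 12 when 1 library was left out, fewest without control replicate 1. Mrps33 had 42.8, 40.9 and 47.2 CPM in control and 34.1, 29.8 and 33.99 CPM with the dye (−0.41 ± 0.07, adjusted p = 0.000765). Mrpl41 fell from 101 ± 4.14 to 82.1 ± 3.41 CPM (−0.30 ± 0.06, adjusted p = 0.00299). Among 11 mitochondrially encoded mRNAs, mt-Nd5, a core subunit of complex I, was the 1 called lower, beside 2.39% lower over all genes. Its libraries had 1289, 1171 and 1191 CPM in control and 1052, 985 and 1097 CPM with the dye (−0.22 ± 0.05, adjusted p = 0.00467). The call of mt-Nd5 was lost with the length and GC trend removed (−0.07, adjusted p = 0.453) and without control replicate 1 or dye replicate 2. The list median of −0.21 became −0.01 with the trend removed. In this list mt-Co2, mt-Co3, mt-Atp6 and mt-Nd3 had control means of only 6.35, 4.26, 3.87 and 0.405 CPM. Their log2 fold changes of −0.26, −0.27, −0.44 and −1.34 all lay below the list median, and none of them was called.

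Proteasome subunits, which form the main protease for ubiquitin-tagged proteins, had 5 of 37 called lower and none higher, beside 2.39% lower over all genes (median −0.03). The count was between 2 (without control replicate 1) and 5 when 1 library was left out. Psma7, of the core ring, fell from 321 ± 8.56 to 272 ± 8.01 CPM (−0.24 ± 0.05, adjusted p = 0.00185), and Psmb3, also of the core, from 229 ± 14.1 to 192 ± 6.48 CPM (−0.26 ± 0.05, adjusted p = 0.00269). Both kept their call in all 6 fits. Psma4 fell by 0.17 on the log2 scale and kept its call in 2 of them. The ribosomal, respiratory, mitochondrial ribosomal and proteasome lists have median exon lengths of 1775.5, 1756, 2533 and 2820 bases, under the 4013 of all genes tested.

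Host genes of small nucleolar RNAs and other long noncoding RNAs had the lowest median of the 29 lists, −0.24 over 19 measured, with 6 lower and none higher, beside 2.39% lower over all genes (5 lower with the trend removed, between 2 and 7 when 1 library was left out). Snhg1, whose introns carry small nucleolar RNAs, had 46.3, 39.2 and 45.02 CPM in control and 33.8, 30.9 and 31.1 CPM with the dye. The groups were apart, and its log2 fold change was −0.44 ± 0.08 (adjusted p = 0.00117). Snhg6 fell from 40.5 ± 2.06 to 31.8 ± 0.414 CPM (−0.35 ± 0.08, adjusted p = 0.00790). Neat1, the scaffold RNA of nuclear paraspeckles, fell from 65.5 ± 5.84 to 51.9 ± 2.16 CPM (−0.34 ± 0.08, adjusted p = 0.0116). The call of Snhg6 was lost without control replicate 1 or 3 (adjusted p up to 0.0636) and that of Neat1 without control replicate 1 or dye replicate 2 (up to 0.127). The widest drop of any called gene above 5 CPM was in Gt(ROSA)26Sor, the noncoding transcript of the Rosa26 locus (chr6:113067428-113077333, minus strand), with 11.5, 11.2 and 12.6 CPM in control and 7.09, 8.05 and 7.37 CPM with the dye (−0.65 ± 0.10, adjusted p = 0.000160). Gt(ROSA)26Sor overlaps Thumpd3 on the other strand, and Snhg1 holds several small RNA genes. Without a stated strand setting, reads of such overlapping genes cannot be assigned with certainty. Other genes among the 12 lowest were 3830403N18Rik (87.5 ± 6.76 against 59.6 ± 0.571 CPM), 1810022K09Rik (95.3 ± 7.70 against 65.5 ± 1.84), the prefoldin subunit Pfdn4 (48.6 ± 5.27 against 33.6 ± 2.48) and the replication protein A subunit Rpa3 (37.1 ± 3.92 against 25.8 ± 0.619), each called in all 6 fits without 1 library. With the trend removed, Rpa3 was at −0.30 (adjusted p = 0.0240) and 3830403N18Rik at −0.34 (adjusted p = 5.91e-05), both over 1.5 times smaller than before. The 12 lowest also held 3 genes whose call was less stable. Rab26os, a noncoding RNA that overlaps Snord60 (10.1 ± 1.79 against 6.78 ± 0.499 CPM), lost its call without control replicate 3 (adjusted p = 0.0709). Gm14295, one of a cluster of near-identical zinc finger genes (7.53 ± 0.771 against 5.21 ± 0.433), lost it without control replicate 2, control replicate 3 or dye replicate 3 (up to 0.104). Itgb3bp, a centromere protein gene that overlaps Pgm1 (6.32 ± 0.348 against 4.40 ± 0.184), lost it in each of the 6 fits (up to 0.0977).

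Genes outside these lists were also among those that kept their call without any 1 library, and the ones named here were lower with the dye. The genes in this paragraph were picked from the 76 lower genes after their values were seen, so they describe single genes and no theme. The mediator subunit Med21 went from 30.3 ± 3.68 to 21.3 ± 1.47 CPM (−0.50 ± 0.09, adjusted p = 0.00117), the RNA polymerase subunit Polr2k from 49.5 ± 4.89 to 36.1 ± 2.72 CPM (−0.45 ± 0.08, adjusted p = 0.00109), and the splicing factor Sf3b6 from 133 ± 6.66 to 98.3 ± 3.11 CPM (−0.43 ± 0.07, adjusted p = 0.000218). The general transcription factor Gtf2b and the splicing factor Srsf3 fell less, by 0.30 and 0.23 on the log2 scale. Usmg5, a small subunit associated with ATP synthase, went from 243 ± 23.9 to 172 ± 1.59 CPM (−0.50 ± 0.07, adjusted p = 5.92e-05), and Slirp, which stabilises mitochondrial mRNAs, from 124 ± 7.53 to 91.3 ± 2.74 CPM (−0.44 ± 0.07, adjusted p = 0.000129). The protein import genes Timm8b, Tomm5 and Tomm20 fell by 0.38, 0.33 and 0.28 on the log2 scale. The centromere genes Cenpk (25.2 ± 2.16 to 17.6 ± 1.04 CPM) and Cenpw (38.1 ± 2.78 to 29.3 ± 1.25) and the chromatin protein Hmgb2 (415 ± 11.8 to 347 ± 18.9) also kept their call in these fits, but Cenpw and Hmgb2 were not called with the length and GC trend removed (adjusted p = 0.0649 and 0.0754). Ly86, which encodes the innate immune receptor partner MD-1, fell from 205.5 ± 7.49 to 174 ± 0.561 CPM (−0.24 ± 0.05, adjusted p = 0.00341). Usmg5, Slirp, Med21 and Cenpk overlap other genes on the other strand, with the same uncertainty. So do other genes named in this text, among them Rps27a, Rpl31, Rpl15, Rpl22l1, Cox6c, 1810022K09Rik, Pfdn4, Snhg6 and Ptger4.

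Rgs1, which switches off G-protein signals of chemoattractant receptors, was the gene of a signalling pathway with the clearest drop. It lies at chr1:144242296-144249242 (minus strand) and had 61.1, 54.3 and 55.2 CPM in control and 40.4, 35.9 and 34.5 CPM with the dye. The highest dye library was well under the lowest control. The log2 fold change of Rgs1 was −0.62 ± 0.08 (adjusted p = 1.96e-05), with an adjusted p of at most 0.000866 when any 1 library was left out and −0.52 (adjusted p = 0.000295) with the trend removed. The summed exons of Rgs1 cover 6947 bases, which is the whole span of the locus given above. The length of its spliced mRNA is therefore not known from this value. Rgs2, a related inhibitor that acts mainly on Gq, had 48.3, 49.4 and 43.8 CPM in control and 37.7, 38.6 and 39.9 CPM with the dye (−0.29 ± 0.06, adjusted p = 0.00508) and also kept its call in all 6 fits.

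Of the 33 measured genes for G-protein receptors and RGS proteins, 4 were lower and none higher, beside 2.39% lower over all genes (median −0.01). The other two were Ptger4, a prostaglandin E2 receptor (26.4 ± 1.62 against 21.6 ± 0.790 CPM, −0.29 ± 0.06, adjusted p = 0.00773), and Gpr183, an oxysterol receptor (49.8 ± 3.11 against 43.4 ± 1.16, −0.20 ± 0.05, adjusted p = 0.0270). Gpr183 kept its call in 1 of the 6 fits and lost it with the trend removed (adjusted p = 0.0876), and Ptger4 lost it without control replicate 2 or dye replicate 3 (adjusted p up to 0.0658). Outside the list, the receptor gene P2ry10b fell from 20.2 ± 1.33 to 14.01 ± 0.832 CPM (−0.52 ± 0.08, adjusted p = 0.000231). Across the 8 groups of the series, Rgs1 was lowest with Di-2-ANEPEQ (36.9 ± 3.08 CPM), followed by DiBASC2, another voltage-sensitive dye (41.1 ± 2.99), AAV (42.6 ± 0.812), the calcium indicator Fura-2 (45.3 ± 5.95), control (56.9 ± 3.69), nanotubes labelled COOH SWCNT (76.2 ± 8.44), LPS (117 ± 5.13) and nanotubes labelled (GT)6 SWCNT (121.8 ± 12.9). The libraries of Di-2-ANEPEQ, DiBASC2 and Fura-2 overlapped in Rgs1, and those of control did not overlap with any of these 3.

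Of 25 measured cytokine and chemokine genes, 3 (12%) were lower and none higher, beside 2.39% lower over all genes, with a median of 0.01 (1 lower with the trend removed, from 0 to 3 when 1 library was left out, none without control replicate 1). The filter on low counts took in every group of the series. Il10, Il6, Il12b, Csf2, Csf3 and Cxcl16 had means under 1 CPM in both groups compared here. Such genes could hardly be called, and their log2 fold changes of −0.10 to 1.78 enter the share and the median. Ccl2, which attracts monocytes, had 219, 198 and 194 CPM in control and 182, 155 and 149 CPM with the dye. The groups did not overlap, and its log2 fold change was −0.33 ± 0.07 (adjusted p = 0.00325). The call of Ccl2 was lost without control replicate 1 or dye replicate 3 (adjusted p up to 0.0601). Ccl9 fell from 45.7 ± 2.96 to 37.1 ± 2.78 CPM (−0.29 ± 0.08, adjusted p = 0.0229) and kept its call in 3 of 6 fits, but not with the trend removed (adjusted p = 0.0780). Cxcl2, which attracts neutrophils, had 15.2, 11.3 and 12.5 CPM in control and 11.7, 8.90 and 8.39 CPM with the dye. The groups of Cxcl2 overlapped by 1 library (−0.40 ± 0.11, adjusted p = 0.0335), and the call was lost without control replicate 1, control replicate 3, dye replicate 2 or dye replicate 3 (adjusted p up to 0.301) and with the trend removed (adjusted p = 0.0668).

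Tnf stood at 35.6 ± 1.26 CPM in control and 31.96 ± 1.66 with the dye (−0.15 ± 0.06, adjusted p = 0.145), with no overlap between the libraries. In LPS the level of Tnf was 1144 ± 53.8 CPM. Il1b had 9.12 ± 0.869 and 8.28 ± 0.220 CPM (adjusted p = 0.529), and Il6 0.201 ± 0.0270 and 0.224 ± 0.121 CPM (adjusted p = 0.885). Ptgs2, which makes prostaglandins, was not called (40.5 ± 2.30 against 37.8 ± 3.60 CPM, adjusted p = 0.456). Nfkbia, the feedback inhibitor of NF-kB, had 113 ± 2.71 and 112 ± 0.842 CPM (−0.02 ± 0.05, adjusted p = 0.917). Of 23 NF-kB genes, Nfkbiz was the 1 called (lower, 15.9 ± 1.27 against 13.6 ± 1.21 CPM, adjusted p = 0.0391), and of 35 immediate early and ERK feedback genes, Atf3 was (lower, 97.9 ± 2.70 against 87.2 ± 3.66, adjusted p = 0.0377). These shares, 4.35% and 2.86%, were near the 3.08% called over all genes. Nfkbiz kept its call in 2 of the 6 fits without 1 library and Atf3 in 1.

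Genes called higher were fewer and their changes were smaller. Pnpla2, which encodes adipose triglyceride lipase, the enzyme that starts the breakdown of stored fat, lies at chr7:141455198-141460743 (plus strand). It had 66.5, 70.0 and 65.2 CPM in control and 79.2, 79.8 and 82.5 CPM with the dye. Each dye library lay above each control, and the log2 fold change of Pnpla2 was 0.26 ± 0.05 (adjusted p = 0.00236). Golga3, a golgin of the Golgi stack, had 51.7, 58.2 and 53.8 CPM in control and 65.8, 63.2 and 64.2 CPM with the dye (0.24 ± 0.05, adjusted p = 0.00208). Zmiz2, a coregulator of transcription, had 123, 128 and 130.1 CPM in control and 148, 146 and 145 CPM with the dye (0.21 ± 0.04, adjusted p = 0.00319). These 3 were called higher in all 6 fits without 1 library, with adjusted p up to 0.0321, 0.0352 and 0.0392, and with the length and GC trend removed. The exons of Pnpla2 span 3020 bases, shorter than the median gene, and those of Golga3 span 12671.

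Glycolytic and HIF-1 target genes tended upwards. Of 31 identifiers measured (30 genes, as Aldoa has a second one), 7 were higher and none lower, beside 0.686% higher over all genes, and the list median was 0.10. The groups did not overlap with the dye higher in 16 of them, beside 12% of the genes tested. Called higher were the hexokinase Hk2 (188 ± 0.628 to 211 ± 6.00 CPM), the phosphofructokinases Pfkp (383 ± 9.69 to 425 ± 4.77) and Pfkl (226 ± 4.61 to 249.5 ± 0.624), the isomerase Gpi1 (973 ± 14.7 to 1085 ± 6.83), Aldoc (108 ± 4.62 to 120.0 ± 1.15), the collagen prolyl hydroxylase P4ha2 (17 ± 0.793 to 21.03 ± 0.663) and the stress gene Ndrg1 (66.0 ± 0.128 to 78.2 ± 4.11). The rise of Pfkp was 0.15 ± 0.04 on the log2 scale (adjusted p = 0.0174) and that of P4ha2 was 0.30 ± 0.07 (adjusted p = 0.0143). Ldha and Vegfa, also targets of HIF-1, had values of −0.07 and −0.04 and were not called.

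None of the 7 glycolytic and HIF-1 calls held in every fit without 1 library, and at most 3 members were called in any of those fits. With the trend removed, Hk2, Pfkp, Pfkl, Gpi1 and Ndrg1 were no longer called (adjusted p 0.0504 to 0.409). The 3 members called higher were then P4ha2, Aldoc and Pgk1, the last of which was not called before, and the list median was 0.07. The letters ACGTGC or their reverse complement GCACGT, part of the sequence bound by HIF factors, were found in 48.1% of the 27 promoters of this list and in 8.29% of those of all genes tested. The list was drawn up from known HIF-1 targets, so this share describes the list and not the dye.

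Among the 12 highest log2 fold changes above 5 CPM were Selenbp1, a selenium-binding protein (18.0 ± 2.42 to 24.6 ± 1.51 CPM, 0.46 ± 0.13, adjusted p = 0.0359), the integrin chain Itgb7 (24.1 ± 0.846 to 30.1 ± 1.12, 0.32 ± 0.08, adjusted p = 0.0123), the ubiquitin ligase of the TGF-beta pathway Smurf1 (19.2 ± 1.13 to 23.98 ± 1.5, 0.32 ± 0.08, adjusted p = 0.0240) and the endoplasmic reticulum protein Wfs1 (17.8 ± 1.15 to 21.8 ± 0.697, 0.29 ± 0.07, adjusted p = 0.0119). The others were Ccdc85b, Eml6, Chpf, Zbtb4, Vwf, P4ha2, Itpripl1 and Naa60, with log2 fold changes between 0.27 (Naa60) and 0.43 (Ccdc85b). All 12 lost their call in at least 3 of the 6 fits without 1 library. With the trend removed, Ccdc85b (adjusted p = 0.0648), Zbtb4 (0.0876), Vwf (0.194), Smurf1 (0.0783) and Naa60 (0.0623) were no longer called, and Vwf went from 0.35 to 0.23. Ccdc85b overlaps Fosl1 on the other strand.

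Other lists held few calls. None was made among 48 ion channels and 21 ion pumps and exchangers, the proteins that set the membrane voltage the dye reports, and the medians of these lists were 0.04 and 0.02. In the ion-channel list 9 members were higher without overlap between the groups and 4 lower, so 13 of 48 were apart, near the 24.3% of all genes tested. None was called by the same test among 29 genes of the integrated stress response, 15 heat-shock genes, 18 p53 targets, 17 clock genes or 16 genes of fatty acid synthesis and LXR targets. Single members were called in the unfolded protein response (Hspa5, the chaperone BiP, 1300 ± 18.9 to 1185 ± 33.2 CPM), among NRF2 targets (the peroxiredoxin Prdx1, 1115 ± 78.3 to 936 ± 37.8) and among 28 interferon-stimulated genes (Ifi27l2a, 27.8 ± 2.44 to 22.6 ± 1.80), all lower. They kept their call in 2, 2 and 1 of the 6 fits without 1 library. Prdx1 (adjusted p = 0.0625) and Ifi27l2a (0.0769) were not called with the trend removed. With shares of 5%, 4.17% and 3.57%, these lists were near the 3.08% called over all genes.

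Of 30 microglial and macrophage identity genes, Tyrobp, the adaptor of TREM2, was the 1 called (470, 424 and 473 CPM in control, 414, 374 and 397 CPM with the dye, −0.21 ± 0.06, adjusted p = 0.0367). This is 3.33% of the list, near the 3.08% of all genes, and Tyrobp kept its call in 2 of the 6 fits. Trem2 itself had 167 ± 7.56 and 154 ± 2.83 CPM without overlap (−0.12 ± 0.04, adjusted p = 0.111). With the length and GC trend removed Trem2 was called lower (−0.15, adjusted p = 0.0394). Csf1r, the receptor for colony-stimulating factor 1, had 507 ± 20 and 529 ± 12.1 CPM (adjusted p = 0.426), and Apoe 963 ± 25.6 and 1051 ± 12.8 CPM (adjusted p = 0.194). In bulk RNA, fewer cells with a transcript and less of it per cell cannot be told apart. The cell-cycle kinase Cdk1 had 149.8, 149 and 154 CPM in control and 137, 132 and 131 CPM with the dye (−0.18 ± 0.04, adjusted p = 0.00508) and kept its call in all 6 fits. Of the others, the cyclin gene Ccne2 was lower and the helicase subunit Mcm4 higher among 43 cell-cycle genes, beside 3.08% called over all genes. Ccne2 and Mcm4 kept their call in 4 and 3 of the 6 fits. Ccne2 was not called with the trend removed (−0.21, adjusted p = 0.0633). The tubulin genes Tuba1b (1360 ± 59.4 to 1178 ± 17.9 CPM) and Tuba1a and the myosin light chain Myl6 were lower among 27 cytoskeletal genes. This stands beside 2.39% lower over all genes. Among these calls, that of Tuba1b was kept in all 6 fits. Of 366 zinc finger genes, 6 were lower and 1 (Zbtb4) higher, 1.91% against 3.08% over all genes, and with the trend removed 2 were lower and none higher.

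The remaining lists had at most 2 calls each, beside 3.08% called over all genes tested. These calls describe single genes and not the lists. The lysosomal hydrolases Gaa (227 ± 8.09 to 256 ± 6.83 CPM) and Neu1 (184 ± 11.1 to 165 ± 2.58) were called in opposite directions among 43 lysosomal genes, and kept their call in 4 and 2 of the 6 fits. With the trend removed Gaa went from 0.18 to 0.11 and was not called (adjusted p = 0.0619), while Neu1 was (adjusted p = 0.00659). Among 23 genes of cholesterol synthesis Mvd, an enzyme of the mevalonate pathway, was higher (59.6 ± 0.756 to 67.0 ± 0.895, adjusted p = 0.0269), and it kept its call in none of the fits without 1 library. Hist1h4i was lower among 47 replication-dependent histone genes (50.4 ± 4.06 to 40.9 ± 2.55) and kept its call in 2. Poly-A selection measures such histone mRNAs poorly, because most of them carry no poly-A tail.

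**Figure D5:**
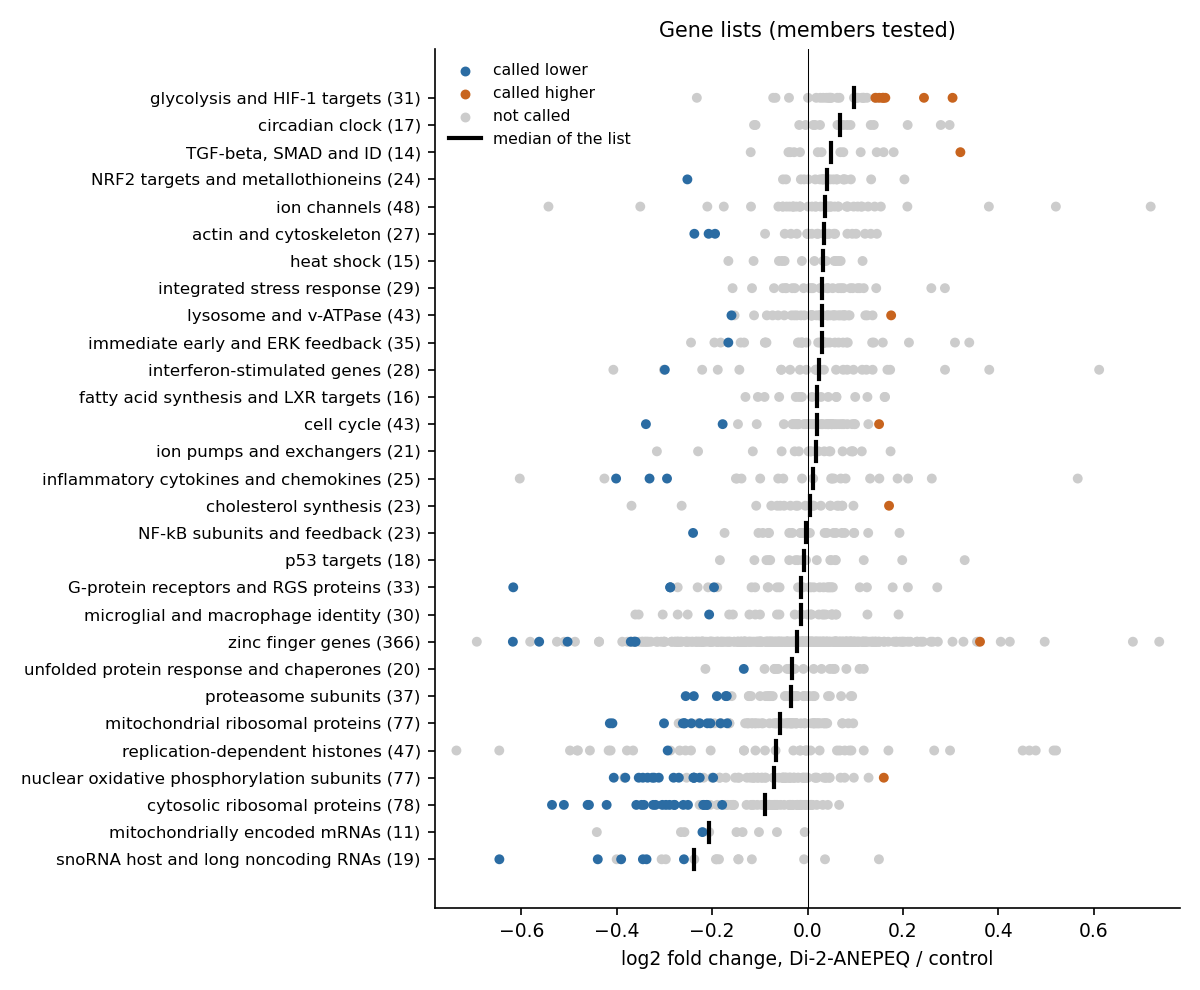
Log2 fold change of each measured member of the 29 gene lists, ordered by the median of the list (black bar), with the number measured in brackets; blue members were called lower, orange higher and grey ones were not called. The noncoding RNA, mitochondrial, ribosomal and histone lists lie at the bottom and the glycolytic list at the top, and 13 members beyond ±0.75 are not drawn.

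Direct tests set the dye libraries against those of Fura-2, AAV and DiBASC2. The control libraries entered these tests only through the shared filter, scaling factors and estimate of the spread. Against Fura-2 no gene was called by edgeR's quasi-likelihood test (0%), although 825 genes had an unadjusted p under 0.05, and DESeq2's test called 1. Rgs1 was lower by 0.29 ± 0.08 than with Fura-2 (adjusted p = 0.513), and Rpl39 by 0.16 ± 0.07 (adjusted p = 0.772). Ptger4 was lower by 0.28 ± 0.06 than with Fura-2 (adjusted p = 0.177). A p above the threshold does not show that the treatments act alike. Ribosomal-protein genes took 6.01% to 6.56% of the counts with COOH SWCNT, 6.91% to 7.27% with AAV and 6.92% to 7.58% with Fura-2. They took 7.23% to 7.61% with DiBASC2, 7.34% to 7.53% with (GT)6 SWCNT and 7.12% to 8.15% with LPS. A share below that of control was therefore not particular to Di-2-ANEPEQ. In Rpl39 the group means, in order, were 509 ± 43.9 CPM with COOH SWCNT, 558 ± 11.2 with Di-2-ANEPEQ, 563 ± 56.3 with AAV, 622 ± 71.3 with Fura-2, 642 ± 38.6 with DiBASC2, 730.1 ± 34 with (GT)6 SWCNT, 809 ± 62.2 in control and 883 ± 65.0 with LPS, and neighbours in this order overlapped except COOH SWCNT with Di-2-ANEPEQ and DiBASC2 with (GT)6 SWCNT.

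Against AAV, 8 genes (0.061%) were called, all of them lower with Di-2-ANEPEQ. They were the mitochondrially encoded mt-Nd2 (−0.35 ± 0.06, adjusted p = 0.00479), mt-Nd4 (−0.34 ± 0.06, adjusted p = 0.00479) and mt-Nd5 (−0.27 ± 0.05, adjusted p = 0.00479), the immediate early gene Egr2 (−0.41 ± 0.07, adjusted p = 0.00479), the glucose-responsive gene Txnip (−0.24 ± 0.04, adjusted p = 0.00331), and Nabp1, Pmaip1 and Sh3bgrl. The mean of mt-Nd5 was 1258 ± 28.6 CPM with AAV, 1217 ± 63.1 in control and 1045 ± 56.8 with Di-2-ANEPEQ, the lowest of the 8 groups. No gene was called against AAV when dye replicate 2 was left out, 1 without AAV replicate 1, and 35 without AAV replicate 2. The ribosomal-protein genes Rpl39, Rps27a and Rpl22 were not called against AAV (−0.01, 0.025 and −0.08). Nor were the respiratory genes Cox6c, Cox7b and Ndufb4 (0.01, −0.145 and 0.06).

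Against DiBASC2, 1174 genes were called (8.95%), 719 higher (5.48%) and 455 lower (3.47%) with Di-2-ANEPEQ. With upper-quartile factors the split was 431 higher and 746 lower, and the median over all genes moved from 0.00 to −0.04. The direction of each gene named here was the same under both scalings. The inflammatory genes named here were higher with Di-2-ANEPEQ than with DiBASC2. Cxcl2 had 9.65 ± 1.76 CPM against 4.18 ± 0.663 with DiBASC2 (1.22 ± 0.13, adjusted p = 3.41e-08), and Tnf had 31.96 ± 1.66 against 23.2 ± 0.735 (0.47 ± 0.06, adjusted p = 4.92e-07). Ccl4, Fosl1, Ptgs2, Nfkbia and Ccl2 were also higher, by 0.98, 1.01, 0.60, 0.43 and 0.38. On the other side, Rgs2 had 38.7 ± 1.09 CPM with Di-2-ANEPEQ and 56.4 ± 0.0308 with DiBASC2 (−0.54 ± 0.06, adjusted p = 4.6e-08), and Neat1 was lower by 0.93 ± 0.07 (adjusted p = 9.71e-11). Rgs1 was not called between the 2 dyes (−0.15 ± 0.08, adjusted p = 0.259). The count of genes called between the 2 dyes was 610 to 1284 when 1 library of either group was left out.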

How the data were processed

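Poly-A RNA of SIM-A9 cells was sequenced in 24 libraries, 3 per group, and groups were taken from the sample titles. The authors deposited raw counts per gene, whole numbers, for 54838 Ensembl identifiers; per the submitters' processing notes, reads were aligned with STAR 2.5.4b and the build was GRCm38.p6. The counting tool, the strand setting, the annotation release and the treatment of multi-mapped reads are not given in the sources used here, so overlapping genes and genes with processed pseudogenes, ribosomal proteins among them, are uncertain. Symbols, positions and exon lengths came from GENCODE M21 on GRCm38; 53947 identifiers matched with their version, 54809 without it, and 29 did not match.

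Genes were kept by filterByExpr over the groups of all 24 libraries, so some were near 0 in the 6 libraries compared. TMM factors scaled the counts. The 24 libraries entered a single quasi-likelihood fit (edgeR 4.0.16 in R 4.3.3), with each group having its own mean, so all groups share 1 estimate of the spread (16 residual degrees of freedom, biological coefficient of variation 4.12%). Tests were two-sided, with Benjamini-Hochberg adjustment over all genes tested, and a gene was called under 0.05. Adjusted p-values are from this test unless another is named. CPM are TMM-scaled, given as mean ± SD of 3 libraries or per library in replicate order. Standard errors (SE) of fold changes are the size of the change over the square root of F. Replicates differed by more than sampling noise (chi-square per degree of freedom 2.64 to 5.27), so each counted as 1. The length and GC trend was removed as a per-library offset fitted with splines of 5 degrees of freedom.

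The named genes were the 12 highest and 12 lowest called genes of at least 5 CPM without overlap between groups, up to 3 called genes per list with the smallest adjusted p, the 10 smallest adjusted p per direction among genes called without any 1 library, Tnf, Il1b, Cxcl2, Nfkbia, Ptgs2 and Rgs1, and the extremes of the direct tests. Further called or uncalled members of a list are named to fill out the description of that list. The members and lists were chosen with earlier results of these data known. Scripts were tested on simulated data. DESeq2 1.42.0 was an alternative. Promoter sequences are from RefSeq.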

Additional observations from a re-analysis of the deposited data

How the results depend on the processing

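The 404 calls against control were 402 with DESeq2 size factors, 424 with upper-quartile factors, 560 without the low-count filter, 473 at a mean of at least 50 counts, 365 with every library thinned to the smallest total (chosen after seeing the data) and 550 with DESeq2's test (164 higher). A fit of only the 2 groups gave 814 (231 higher, 583 lower). Removing the length and GC trend left 52 higher, and 36 with the replicate block added. The replicate numbers did not pair the samples (correlations 0.044, 0.034 and −0.004 between same-numbered libraries), and the replicate block alone gave 396 calls (90 higher, 306 lower). Leaving out 1 library gave 120 to 418 calls, 14 to 73 higher and 106 to 345 lower, and a length slope of 0.0258 to 0.04; the cause of these differences was not tested.

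Against Fura-2, calls were 67 without the filter, 21 with only the 2 groups, 1 with DESeq2's test and 0 to 1 without 1 library. Against AAV they were 77 without the filter, 37 with only the 2 groups, 26 with DESeq2's test, 2 with the trend removed and the replicate block, and 0 to 35 without 1 library. Against DiBASC2 they were 610 to 1284 without 1 library.

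For single named genes, 1096 of the values under an alternative kept direction and side of the threshold, 218 lost the call, 9 gained it and none reversed. Depth limits the genes under 1 CPM most, where the widest fold changes against control rest on few counts.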
